A study of Homo sapiens with 12 samples.

Results

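Promoters of long non-coding RNA (lncRNA) genes were examined in G4-ChIP-seq data from HEK293, an established line of human embryonic kidney cells. G-quadruplexes (G4s), stacked folds of guanine-rich sequence, were pulled down from sonicated, fixed chromatin with the antibody fragment BG4. The cells were all unmodified and untreated as far as the labels say, and the libraries come from BioRep1, BioRep2 and BioRep3, the 3 biological replicates: 9 ChIP libraries, 3 technical ones from each replicate. Inputs were not analysed here. Reads were counted in 400 bp windows, 200 bp to each side of an annotated transcription start site (TSS), and each biological replicate has 1 list of peaks. A window was taken as an lncRNA promoter where the nearest RefSeq 5′ end on its strand within 200 bp belonged to a gene of biotype lncRNA and none there to a protein-coding gene. This gave 5333 of 58344 nuclear windows, for 5265 lncRNA genes of the 18303 placed in the RefSeq table, beside 14200 protein-coding windows. They fell into 1247 divergent windows, with a protein-coding TSS on the other strand within 1 kb, 122 windows of genes that hold a small RNA gene on their own strand (hosts), and 3985 standalone windows with neither. The first 2 classes share 21 windows, and 26 windows of genes whose small RNAs have no resolved strand were not counted as hosts.

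The class names describe position in the annotation. No RNA was measured, so neither which of these genes HEK293 cells transcribe nor the identity of the cells can be read from these files. The matched RefSeq gene can differ from the Ensembl gene that gave the window, and 1477 of the 5333 windows matched a gene whose strand was taken from the window itself. Among genes named below, the RefSeq 5′ end lay 179 bp from the window TSS for DLEU2 and 163 bp for GAS5. For CHASERR it lay 136 bp away and for RNASEH1-DT 106 bp. Of lncRNA windows, 20.9% overlapped another window and shared its reads, as did 60.4% of divergent and 8.43% of standalone windows. Depth was 372030 to 846114 reads in windows per library, and lncRNA windows took 9.21 to 9.42% of these reads. The technical libraries of a biological replicate differed by no more than sampling noise (chi-square per window 0.921 to 0.992 over 9 pairs), so each set of 3 was averaged and counted as 1 sample.

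LncRNAs are transcripts made mostly by RNA polymerase II that carry no long open reading frame. Many start in the same nucleosome-free region as a protein-coding gene and run the other way, and such genes often have symbols ending in -DT, for divergent transcript, or in -AS where they run antisense. Others carry small nucleolar RNAs (snoRNAs, guides for chemical modification of other RNAs) or microRNAs, which are cut out of the longer transcript. In human cells, G4s found by BG4 are known to lie mostly in open chromatin of GC-rich promoters.

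For each class, a promoter with a peak in all 3 lists and a promoter with no peak in any are shown. They come from RefSeq (GRCh38.p14, 250 bases before to 50 after the listed start, read along the gene). Each had the highest lowest library of 9 among the named windows of its kind with a listed sequence. Peak-free windows were named mainly by mean CPM, so others in a class may have a higher lowest library. Capitals mark G4 motifs, here 4 runs of at least 3 G (GGG) with loops of 1 to 7 bases on the printed strand, or the same with CCC for a motif on the other strand. Divergent IBA57-DT (chr1:228165463-228165762, minus strand) had a peak in every list and 1 motif, and divergent STAM-DT (chr10:17643869-17644168, minus strand) had neither. TTC28-AS1 (chr22:27919126-27919425, plus strand), which holds a microRNA and is also divergent, had peaks and 1 motif, and the host MIRLET7IHG (chr12:62602493-62602792, plus strand) had neither. Standalone LOC124903933 (chr1:32351352-32351651, plus strand) had peaks and 3 motifs, and LOC101930100 (chr21:9324798-9325097, plus strand) had neither.
IBA57-DT: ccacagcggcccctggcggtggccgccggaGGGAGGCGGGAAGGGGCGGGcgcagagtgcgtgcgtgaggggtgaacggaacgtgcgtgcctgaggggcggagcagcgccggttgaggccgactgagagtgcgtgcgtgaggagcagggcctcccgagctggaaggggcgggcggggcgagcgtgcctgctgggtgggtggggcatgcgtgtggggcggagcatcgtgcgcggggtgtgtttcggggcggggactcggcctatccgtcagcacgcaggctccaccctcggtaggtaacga
STAM-DT: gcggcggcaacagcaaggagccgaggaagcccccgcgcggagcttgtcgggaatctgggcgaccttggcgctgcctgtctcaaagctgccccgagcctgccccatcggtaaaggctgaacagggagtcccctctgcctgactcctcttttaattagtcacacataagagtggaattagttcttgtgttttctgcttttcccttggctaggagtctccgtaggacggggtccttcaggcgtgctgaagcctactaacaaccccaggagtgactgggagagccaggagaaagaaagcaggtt
TTC28-AS1: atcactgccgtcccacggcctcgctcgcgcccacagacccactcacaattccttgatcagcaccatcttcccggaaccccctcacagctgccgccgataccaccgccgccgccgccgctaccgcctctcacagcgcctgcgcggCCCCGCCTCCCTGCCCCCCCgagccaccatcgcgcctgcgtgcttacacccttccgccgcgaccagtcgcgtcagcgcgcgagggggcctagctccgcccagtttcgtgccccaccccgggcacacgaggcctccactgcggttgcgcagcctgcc
MIRLET7IHG: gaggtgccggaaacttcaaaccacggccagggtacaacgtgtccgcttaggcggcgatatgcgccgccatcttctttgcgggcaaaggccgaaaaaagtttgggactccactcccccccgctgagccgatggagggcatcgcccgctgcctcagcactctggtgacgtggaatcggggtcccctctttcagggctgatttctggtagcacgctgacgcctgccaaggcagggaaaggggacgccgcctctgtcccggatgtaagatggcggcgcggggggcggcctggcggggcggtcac
LOC124903933: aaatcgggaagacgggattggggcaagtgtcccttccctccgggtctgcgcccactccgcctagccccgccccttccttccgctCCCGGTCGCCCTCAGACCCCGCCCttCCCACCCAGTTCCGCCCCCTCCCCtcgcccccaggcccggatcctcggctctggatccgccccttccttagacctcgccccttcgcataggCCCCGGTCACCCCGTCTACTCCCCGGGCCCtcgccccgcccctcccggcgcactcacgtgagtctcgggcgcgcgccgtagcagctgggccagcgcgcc
LOC101930100: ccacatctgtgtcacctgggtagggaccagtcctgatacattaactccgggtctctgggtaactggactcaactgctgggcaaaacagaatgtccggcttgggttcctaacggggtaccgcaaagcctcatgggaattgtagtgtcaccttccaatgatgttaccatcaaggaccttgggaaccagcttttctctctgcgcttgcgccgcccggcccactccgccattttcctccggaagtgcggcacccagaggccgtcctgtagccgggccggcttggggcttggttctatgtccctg
GC content was 73.3% for IBA57-DT against 57.3% for STAM-DT, 72% for TTC28-AS1 against 65% for MIRLET7IHG, and 73.3% for LOC124903933 against 57.7% for LOC101930100. These 6 promoters are examples and not a test of the motif.

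A G4 peak lay in 496 of 5333 lncRNA windows in all 3 lists (called a consensus peak below), 9.3% of them (95% Wilson interval 8.55 to 10.1; such intervals cover counting error only), against 8.89% of all nuclear windows. The share was near that background, and it joined classes that differed widely. Divergent lncRNA windows had a consensus peak in 411 of 1247 cases, or 33% (30.4 to 35.6). Host windows had one in 22 of 122, or 18% (12.2 to 25.8), and standalone windows in 76 of 3985, or 1.91% (1.53 to 2.38). For protein-coding windows the share was 25.7%, and for all nuclear windows that are not lncRNA promoters 8.85%. Divergent windows thus held 411 of the 496 lncRNA windows with a consensus peak. A required overlap of 100 bp in place of 1 bp lowered the lncRNA share to 5.7%, and windows that overlap no other had 3.46%.

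The order of the classes was the same in each list. BioRep1's list had a peak in 427 divergent, 23 host and 86 standalone windows (34.2, 18.9 and 2.16%), where 9.45% of all nuclear windows had one. BioRep2's had 614, 33 and 135 (49.2, 27 and 3.39%, with 13.5% of all nuclear windows), and BioRep3's 646, 34 and 164 (51.8, 27.9 and 4.12%, with 14.6%). The lists differ in length, from 7931 peaks (BioRep1) to 11665 (BioRep2) and 13049 (BioRep3), and every class had its lowest count in the shortest list. Counting a peak in both other lists, without BioRep1's, raised the standalone share to 3.09% and the lncRNA share to 13.4%. A peak in any list lay in 886 lncRNA windows (16.6%, against 15.8% of all nuclear windows), of which 56% had it in all 3, 24.7% in those of BioRep2 and BioRep3 alone, and 11.4% in that of BioRep3 alone. Taken within each biological replicate, the share of windows with a peak was higher in divergent than in standalone windows by 41.9 ± 8.53 percentage points (SD, n = 3), in 3 of 3 replicates. Across all lncRNA windows it was lower than in protein-coding windows by a mean difference of -22.2 ± 4.23 percentage points, also in 3 of 3. An exact two-sided sign-flip permutation test gave p = 0.25 for each of these comparisons, the smallest value that 3 replicates allow, so none in this design can pass 0.05. The same p was found for 10 such comparisons of classes on each of 2 measures, and adjustment leaves it at 0.25.

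Shares also differed by kind of symbol. Genes named -DT had a consensus peak in 200 of 443 windows (45.1%), and SNHG genes, named as snoRNA hosts, in 10 of 19 (52.6%; 31.7 to 72.7), but MIR host genes in 5 of 57 (8.77%; 3.81 to 18.9). SNHG10 and SNHG21, both with a consensus peak, carried the symbol but were not counted as hosts here. Antisense -AS genes had one in 137 of 1488 windows (9.21%), genes with only a LOC symbol in 80 of 1168 (6.85%), and LINC genes, mostly intergenic, in 32 of 1631 (1.96%).

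Read density followed the peaks, being counted from the same reads. It is given as CPM (counts per 1000000), the reads of a window scaled to the reads in all windows of its library, averaged over 3 technical libraries and then over 3 biological replicates. The median window had 34.8 ± 0.683 CPM in the divergent class (SD, n = 3), 12.7 ± 0.589 CPM in hosts and 8.48 ± 0.426 CPM in the standalone class, against 25.5 ± 0.476 CPM in protein-coding windows and 8.98 ± 0.524 CPM in all other nuclear windows. On the log2(CPM + 0.5) scale, divergent windows exceeded standalone ones by 1.98 ± 0.10 and protein-coding ones by 0.44 ± 0.05, with the same sign in 3 of 3 replicates (exact sign-flip p = 0.25 for each). Within the lncRNA class, windows with a consensus peak had a median of 61.3 ± 3.51 CPM, and windows with no peak in any list 8.71 ± 0.462 CPM. Peak-free divergent windows still had 15.9 ± 0.178 CPM, against 8.25 ± 0.437 CPM in peak-free standalone windows. The peak-free medians were nearly the same among windows that overlap no other, 15.8 ± 0.186 CPM in divergent and 8.27 ± 0.436 CPM in standalone windows. Their shares with a consensus peak were 17.6% and 1.45%, and their medians over all windows 21.9 and 8.44 CPM. Divergent and protein-coding windows were not compared directly in this set. There, divergent windows had a peak in 18.6, 28.1 and 30.6% of cases in the lists of BioRep1, BioRep2 and BioRep3. All lncRNA windows had 3.79, 5.83 and 6.78%, with a mean difference of -23.6 percentage points from protein-coding windows. On average these values place protein-coding windows above divergent ones in share. The higher divergent share over all windows thus did not hold in this set.

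**Figure D1:**
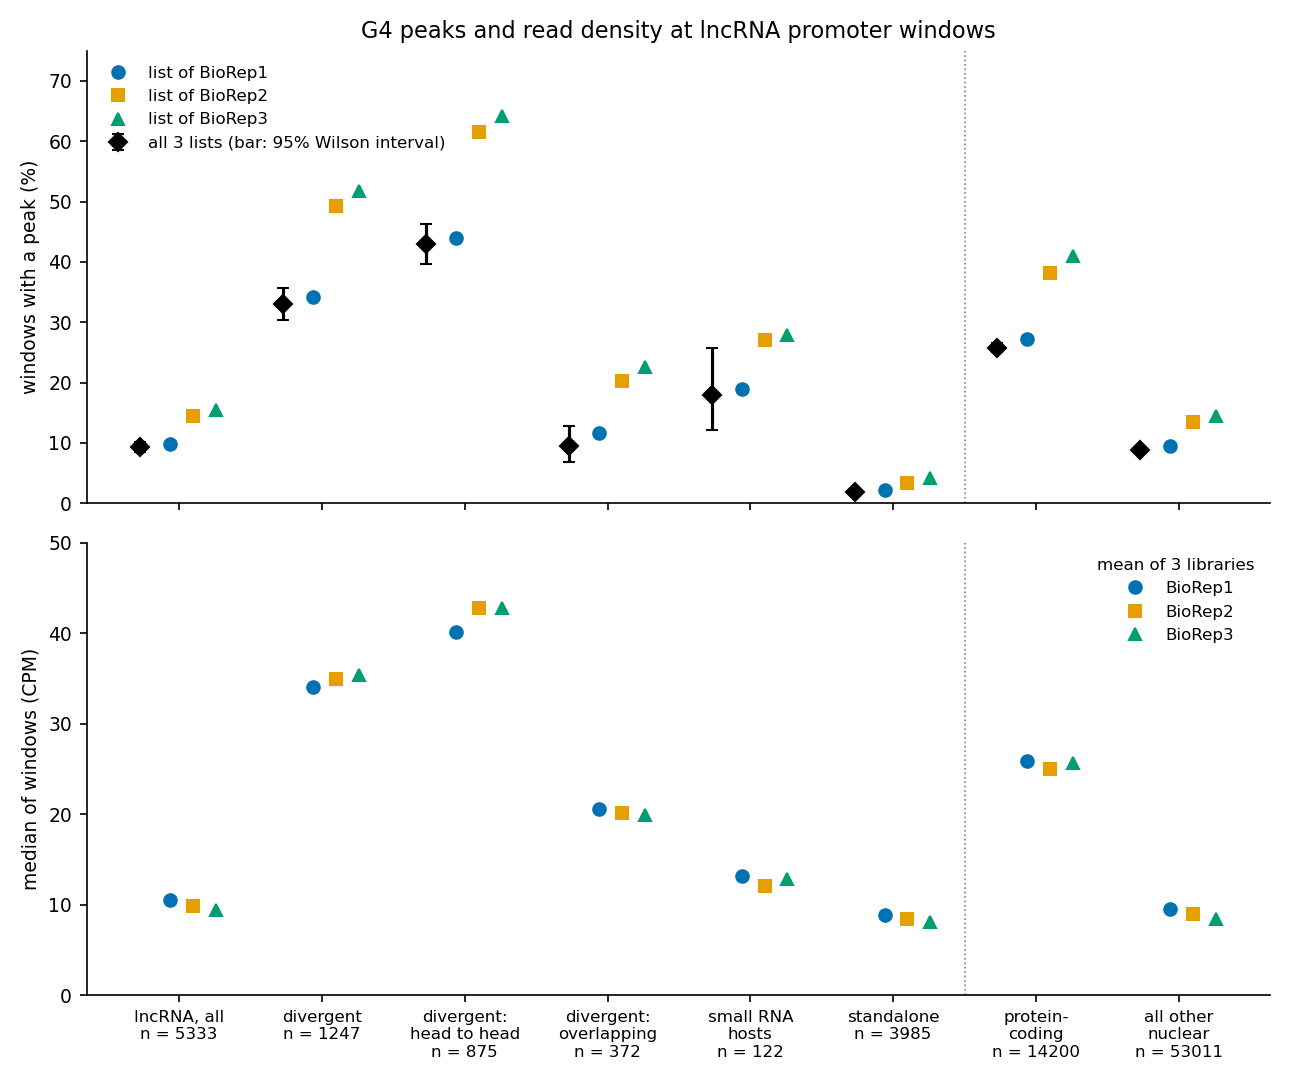
Top: percent of windows with a peak, in all 3 lists (diamonds, with 95% Wilson intervals) and in each replicate's list, for lncRNA classes and, right of the dotted line, protein-coding and all other nuclear windows. Bottom: median CPM of the windows in each biological replicate; head-to-head divergent windows stand highest in both panels (43% in all 3 lists, 40.2 to 42.8 CPM) and standalone windows lowest (1.91%, 8.07 to 8.92 CPM).

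Divergent windows were not alike. In 875 of the 1247 (70.2%) the protein-coding TSS lay upstream of the lncRNA TSS, so that the genes run apart from a shared stretch (head to head). In the other 372 it lay downstream, so that the transcripts overlap. Head-to-head windows had a consensus peak in 376 cases, or 43% (39.7 to 46.3), and overlapping ones in 35, or 9.41% (6.84 to 12.8). Their medians were 41.9 ± 1.52 and 20.2 ± 0.39 CPM. In each of the 3 lists the head-to-head share was the higher, by 38.5 ± 5.32 percentage points (exact sign-flip p = 0.25). The head-to-head share also stood above the 24.7% of protein-coding windows that have no divergent lncRNA. The protein-coding windows of genes that have one, which share many of the same reads, stood at 40.5%. Of head-to-head windows 72% overlapped another window, whose peaks they can share, against 17.9% of protein-coding windows with no divergent lncRNA. These comparisons were not repeated in windows that overlap no other, so the part of overlap in them was not tested.

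By distance, the share peaked where the protein-coding TSS lay 200 to 400 bp upstream of the lncRNA TSS, with 128 of 233 windows (54.9%; 48.5 to 61.2) and a median of 47.1 ± 2.15 CPM. It was 40.1% (224 of 558) at under 200 bp upstream, 35.7% (20 of 56) at 400 to 600 bp, and 3 of 19 at 600 to 800 bp. Downstream it was 16.9% (13 of 77) within 200 bp and 17.2% (17 of 99) at 200 to 400 bp, then 3 of 80, 0 of 56 (which allows up to 6.42%, the upper Wilson limit) and 2 of 59 in the next bins. The 1 kb limit falls where little is left: 4.48% of 67 windows with a protein-coding TSS 801 to 1000 bp away on either side had a consensus peak, and 0 of 45 at 1001 to 1200 bp. At the 200 bp limit for a name, the share was 8.07% for 161 windows with the lncRNA 5′ end at 151 to 200 bp, and 8.78% for 148 unnamed windows with one at 201 to 250 bp.

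**Figure D2:**
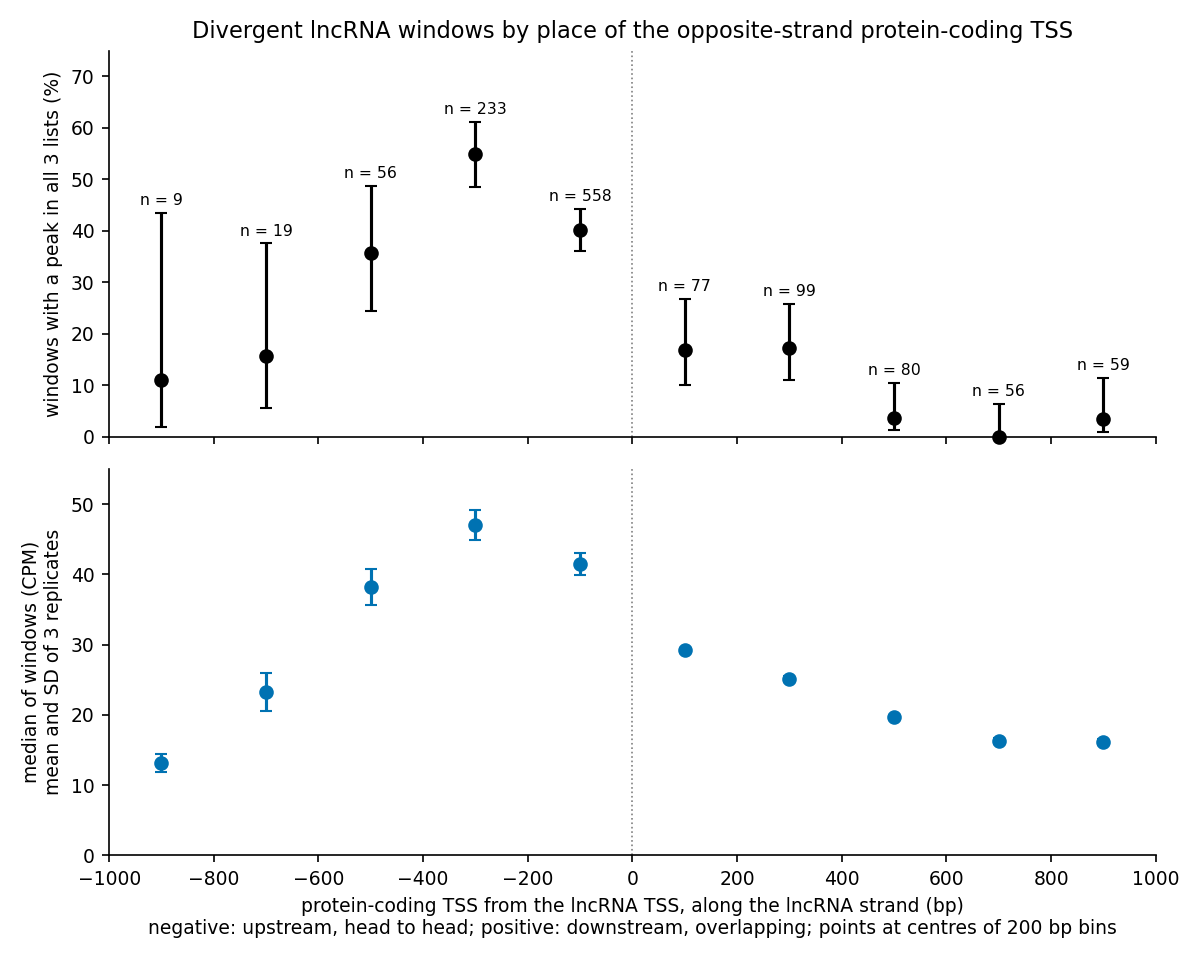
Divergent lncRNA windows in 200 bp bins by where the protein-coding TSS lies along the lncRNA strand (negative: upstream, head to head). The top panel gives the percent with a consensus peak (95% Wilson intervals, n above) and the bottom panel the median CPM (mean and SD of 3 biological replicates); both are highest at 200 to 400 bp upstream, 54.9% and 47.1 CPM, and low beyond 400 bp downstream.

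Where the lncRNA window and the window of its protein-coding partner do not overlap, their peaks can be told apart. There were 216 such pairs with TSSs up to 1400 bp apart. The partner window is the one best matched to the gene, which need not be at the start nearest the lncRNA. Only 8 had a consensus peak in both windows and 11 in the lncRNA window alone, against 58 in the protein-coding window alone, and the lncRNA window had the higher CPM in 29.2% of pairs, with a median ratio of 0.663. Among 602 pairs with overlapping windows, 255 had it in both, 14 in the lncRNA window alone and 24 in the protein-coding window alone. Of the 11, FGD5-AS1 was the densest, with 105 ± 4.45 CPM against 36 CPM at NR2C2, a nuclear receptor gene 840 bp away. TOB1-AS1 had 72 ± 11.2 CPM and the window of TOB1, an antiproliferative gene, 1299 bp away, 21.2 CPM with no peak in any list. NKILA, an lncRNA known to bind NF-kB complexes, had 52.5 ± 0.429 CPM and the PMEPA1 window, 1353 bp away, 11.9 CPM with no peak. The TOB1 and PMEPA1 windows lie past the 1 kb limit. A nearer listed start of each gene made the lncRNA window divergent, and its density is not given here. These 3 lncRNAs were chosen after their values were seen.

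The peaks themselves mostly lay just upstream of the lncRNA TSS. Of 646 consensus regions (peaks of all 3 lists that overlap, merged) with a midpoint within 1 kb of an lncRNA TSS, 70.6% (67 to 74) lay upstream, with a median position of -74.2 bp and quartiles at -145 and 29.6 bp. Standalone promoters had the same form, with 72.2% of 90 regions upstream and a median of -72.5 bp, against 68% of 3645 regions and -41.5 bp at protein-coding TSSs. At head-to-head pairs, 317 of 420 regions (75.5%) had their midpoint between the 2 TSSs, 64 inside the lncRNA gene and 39 inside the protein-coding gene. They were nearer the lncRNA TSS in 200 cases and nearer the protein-coding TSS in 218. At overlapping pairs, by contrast, 20% of 125 regions lay upstream of the lncRNA TSS, and the median position was 454 bp downstream, toward the protein-coding TSS.

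**Figure D3:**
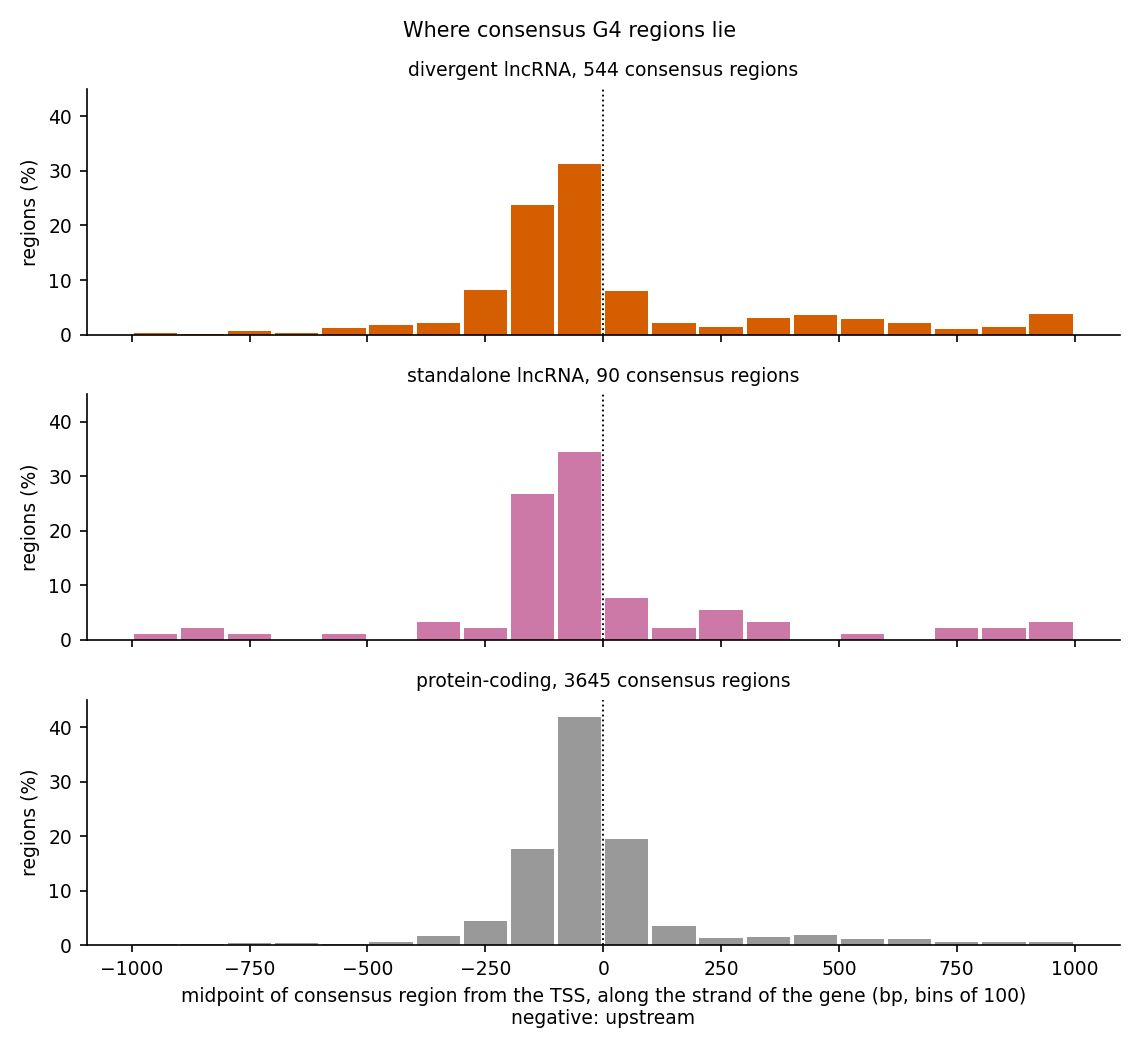
Histograms of consensus region midpoints from the TSS, along the gene's strand, in 100 bp bins, for divergent lncRNA (544 regions), standalone lncRNA (90) and protein-coding windows (3645). In each the tallest bar is the last 100 bp before the TSS, and the divergent class has a low second rise downstream, where the TSSs of overlapping protein-coding genes lie.

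Of the divergent lncRNAs, IBA57-DT, whose promoter is printed above, was the densest of all lncRNA windows. It had 165, 173 and 192 CPM in BioRep1, BioRep2 and BioRep3, with 163 to 214 CPM over the 9 libraries, against a local background of 15.7 CPM (the median of peak-free windows that are neither lncRNA nor protein-coding within 5 Mb). Its partner IBA57, which takes part in iron-sulfur cluster assembly in mitochondria, had 164 CPM 292 bp away, in a window that shares its reads. BioRep3 was highest on average. All 9 libraries lay above the local background, which follows from choosing windows by their lowest library. CHKB-DT, beside the choline kinase gene CHKB, had 127, 136 and 147 CPM against a local 9.4 CPM. RNASEH1-DT lies beside RNASEH1, whose enzyme cuts RNA in RNA-DNA hybrids, and had 109, 117 and 119 CPM against a local 7.03 CPM. FBXL19-AS1, whose transcript overlaps that of its partner FBXL19, had 105, 122 and 110 CPM against a local 4.34 CPM. LINC01607 beside HEY1, LOC124901752 beside CREB3L2 and LOC124904559 beside TBCE averaged 115 to 122 CPM. The RefSeq 5′ ends of LOC124901752 and LOC124904559 lie 17 and 54 bp from the window TSS, which may be the start of another Ensembl gene.

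Density without a called peak also occurred. STAM-DT, beside the endosomal sorting gene STAM, had 44.2, 45.1 and 42.7 CPM, with 37.6 to 53.8 CPM over 9 libraries, and no peak in any list, while the STAM window had 54.8 CPM and a peak in 2 lists. The STAM-DT window overlaps another window and shares reads with it, unlike those of LMO7-AS1 and MORF4L2-AS1. LMO7-AS1 had 49.8, 51.5 and 39.8 CPM without a peak, and its partner LMO7 15.9 CPM. MORF4L2-AS1 had 42.3, 50.3 and 41.2 CPM. These values lie within the range of divergent windows that have a consensus peak, of which the listed HOTTIP averaged 37.7 CPM. The rule behind the deposited peaks is not given in the sources used here.

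Host genes split by the small RNA they carry. Windows of snoRNA hosts had a consensus peak in 12 of 34 cases, or 35.3% (21.5 to 52.1), and those of microRNA hosts in 10 of 89, or 11.2% (6.22 to 19.5); DANCR counts in both. Leaving out the hosts that are also divergent, the counts were 5 of 23 (21.7%; 9.66 to 41.9) for snoRNA hosts and 5 of 79 (6.33%; 2.73 to 14) for microRNA hosts, with medians of 28.2 ± 1.29 and 9.93 ± 0.564 CPM. The share with a peak was the higher in snoRNA hosts in 3 of 3 lists, by 28 ± 7.12 percentage points (exact sign-flip p = 0.25), though the intervals of the 2 consensus shares overlap. Of the 21 windows that are both host and divergent, 13 had a consensus peak, against 9 of the 101 hosts that are not divergent. Among the last, MIR378D2HG has an end of PDP1, a protein-coding gene whose strand could not be resolved, 241 bp away.

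SNHG9, which holds SNORA78 and starts 133 bp from the ribosomal protein gene RPS2, had 106, 97.5 and 102 CPM against a local 9.58 CPM, with 80.9 to 113 CPM over 9 libraries. DANCR, host of SNORA26 and MIR4449 and known as a suppressor of epidermal differentiation, has no divergent partner and had 87.6, 102 and 107 CPM against a local 6.7 CPM. At both genes every library lay above the local background, which again follows from the choice by lowest library. TTC28-AS1, host of MIR3199-2, had 98.1, 97.7 and 109 CPM in the first of its 2 nearly identical windows, and MIR4453HG had 79.4, 98.2 and 102 CPM. Without a peak in any list, the densest hosts were MIRLET7IHG, host of a let-7 microRNA, with 42.6, 35.7 and 36.5 CPM, SNHG17 with 33.7, 32.3 and 39.3 CPM, and MIR1915HG with 35.6, 34.3 and 31.7 CPM.

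The 76 standalone windows with a consensus peak had a median of 59 ± 3.99 CPM, against 8.25 ± 0.437 CPM in the 3808 with no peak. Divergent windows with a consensus peak had 61.3 ± 3.45 CPM, within the spread of that value. The 76 lay nearer to a protein-coding TSS on either strand, at a median of 19.4 kb (quartiles 8.56 and 44.9 kb), against 66.2 kb (22.6 and 193 kb) for those with no peak. By distance the share was 29.4% (5 of 17) within 1 kb, where the protein-coding TSS is on the same strand, then 1.42% (2 of 141) at 1 to 2 kb, 2.86% (5 of 175) at 2 to 5 kb, 4.89% (11 of 225) at 5 to 10 kb, 2.95% (35 of 1187) at 10 to 50 kb and 0.804% (18 of 2240) beyond. They also more often overlapped another annotated window, 23 of 76 (30.3%; 21.1 to 41.3) against 291 of 3808 (7.64%; 6.84 to 8.53). Among standalone windows, 28 lie within 1 kb of an end of a protein-coding gene whose strand could not be resolved, and 5 of these had a consensus peak.

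LOC124903933, printed above, was the densest standalone window with 115, 111 and 124 CPM against a local 13.5 CPM. Its RefSeq 5′ end lies 81 bp from the TSS of the window, which may be the start of another Ensembl gene. CHASERR, an lncRNA known to restrain its neighbour CHD2, had 104, 119 and 121 CPM against a local 9.84 CPM, with 86.1 to 136 CPM over 9 libraries. ERVK13-1 had 120, 99.2 and 119 CPM, TFAP2A-AS2 97.1, 121 and 119 CPM, and LINC01569 97, 91.6 and 109 CPM. Neighbours in this order differ by less than their spread over replicates. Without a peak, the highest was LOC101930100 with 59.6, 41.8 and 42.6 CPM, in a stretch of chromosome 21 where the local median was 0.45 CPM. LINC00358 had 51.9, 34.4 and 40.6 CPM and EN2-DT, whose partner EN2 starts 1030 bp away and so just past the limit, 42.6, 36.4 and 37.1 CPM.

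**Figure D4:**
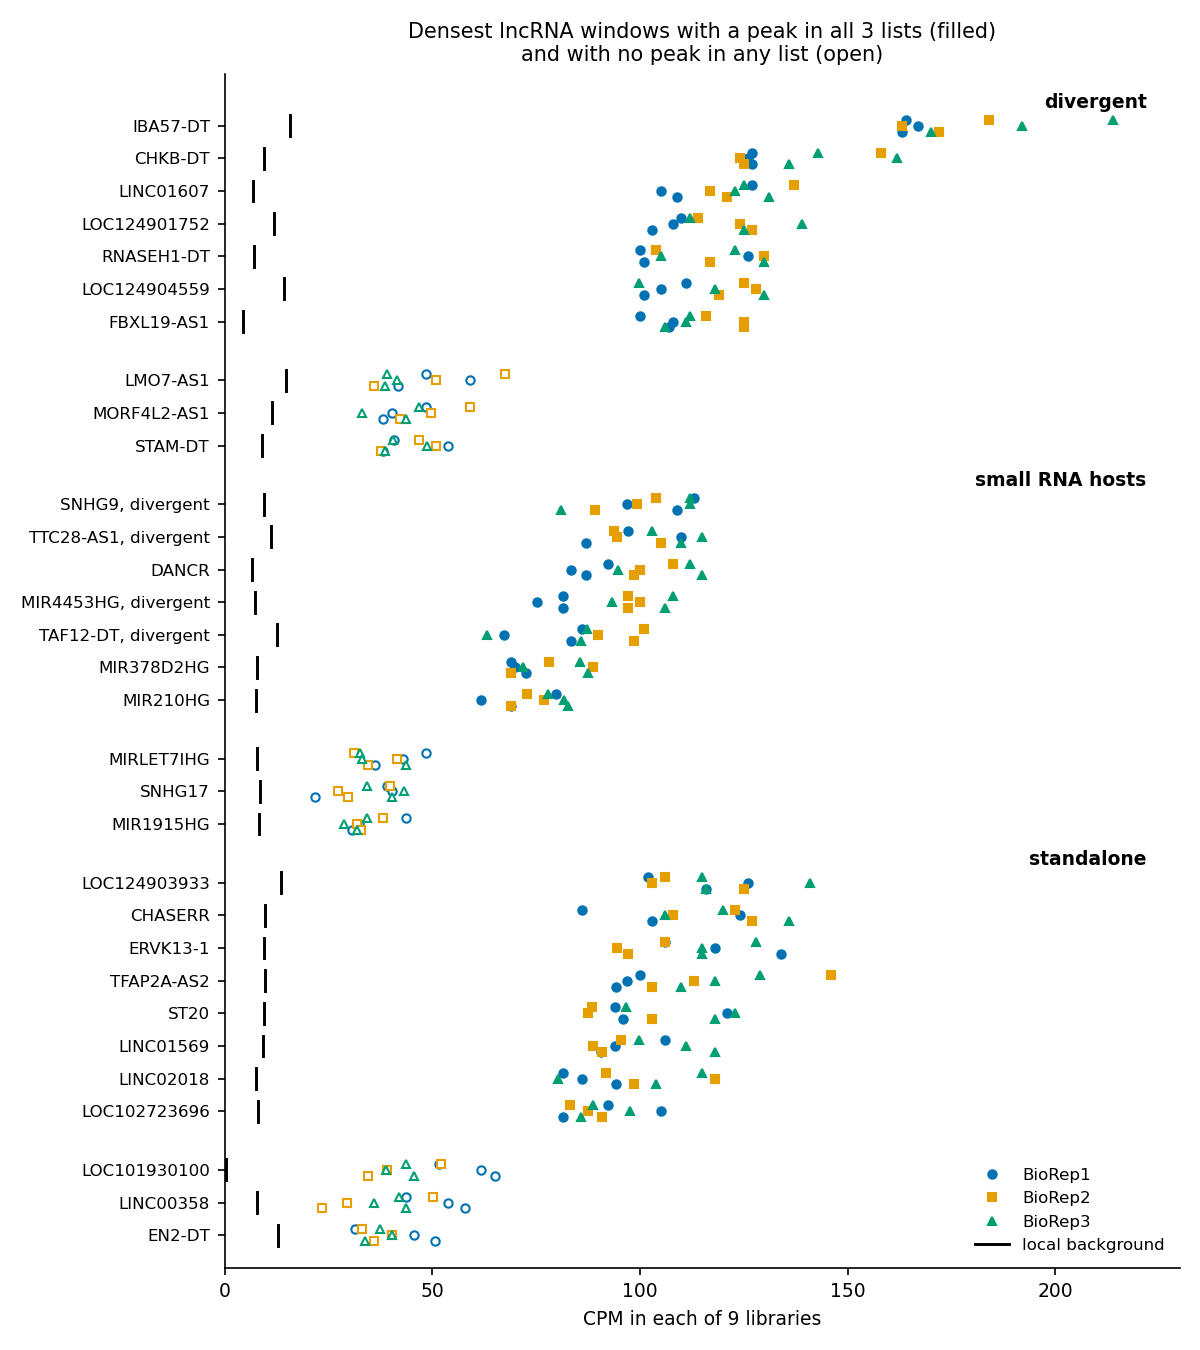
CPM in each of the 9 libraries for the densest windows of each class (divergent, small RNA hosts, standalone), filled for those with a consensus peak and open for those with no peak; black ticks mark the local background. Windows with peaks lie at 61.8 to 214 CPM and those without at 21.7 to 67.6 CPM. All lie right of their local background, which follows from choosing the densest windows.

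Known lncRNAs were described from lists of symbols, each read against the 9.3% of all lncRNA windows. Of 32 listed SNHG genes and related snoRNA hosts, 23 had a window and 12 of these a consensus peak (52.2%; 33 to 70.8), 6 of them divergent; SNHG9 and DANCR led. SNHG25 (56.1 ± 1.78 CPM) and SNHG8 (46.9 ± 8.87 CPM) had a peak in 2 lists, and SNHG12 (15.4 ± 1.47 CPM), SNHG17, SNHG18 and SNHG28 had none. GAS5, known to host snoRNAs and to accumulate in growth arrest, is divergent here and not among the hosts, since the strand of its snoRNAs was not resolved. It had 36.8, 38 and 37.7 CPM and a peak in 2 lists, while its partner ZBTB37 had 80.3 CPM and a peak in all 3. Of 34 listed microRNA hosts, 16 had a window and 3 a consensus peak: MIR210HG, host of a hypoxia-induced microRNA (74.6 ± 5.51 CPM), MIRLET7A1HG (73.9 ± 6.83 CPM) and MIR17HG, host of an oncogenic microRNA cluster (70 ± 1.88 CPM). DLEU2 (40.4 ± 4.41 CPM) followed with a peak in 2 lists and MIR181A2HG (39.2 ± 4.3 CPM) with a peak in 1.

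Of 11 listed abundant nuclear RNAs, 7 had a window and 2 a consensus peak. MALAT1, which accumulates in nuclear speckles, had 69.3, 89.6 and 107 CPM in BioRep1, BioRep2 and BioRep3. Their technical libraries had 53.8 to 79.8, 87.5 to 91.9 and 101 to 114 CPM. How many of all windows have such separate ranges was not counted. Over all 17499 windows tested, the adjusted p of MALAT1 was 0.472 (edgeR's quasi-likelihood test with Benjamini-Hochberg adjustment). NEAT1, the scaffold of paraspeckles, whose gene neighbours MALAT1, had 28.1, 39.3 and 31.9 CPM and a peak in 1 list. KCNQ1OT1, the paternally expressed antisense RNA of an imprinted domain, had 35.7, 39.4 and 42 CPM and a peak in all 3 lists at a lower density than FIRRE (44.8 ± 2.92 CPM), which had a peak in 1. NORAD, which binds Pumilio proteins, had 29 ± 2.14 CPM and a peak in 1 list, and the imprinted MEG3 had 7.02 ± 2.1 CPM, within its spread of the local background of 7.46 CPM. The RefSeq 5′ end of MEG3 lies 176 bp from the TSS of this window, which covers little sequence on 1 side of that end. TUG1 and H19 were listed but had no lncRNA window. KCNQ1OT1 was the only one of 6 listed imprinted RNAs with a window that had a peak in any list; MIR497HG had 16 ± 2.9 CPM and AIRN 10.1 ± 1.79 CPM.

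In the HOX clusters, 11 of 20 listed RNAs had a window and 2 a consensus peak, both divergent. HOTTIP, beside HOXA13, was one of them (37.7 ± 4.28 CPM). HOXA11-AS (30 ± 2.45 CPM) had a peak in 1 list, HOTAIR of the HOXC cluster (23.3 ± 5.54 CPM) in 1, and HOXC-AS3 (26.8 ± 3.22 CPM) in none. Of 2 RNAs listed from the X-inactivation centre, JPX (43.6 ± 4.64 CPM) had a peak in 2 lists and FTX (30.6 ± 4.04 CPM) in none. Of 51 listed tumour-associated RNAs, 32 had a window and 5 a consensus peak (15.6%; 6.86 to 31.8): MALAT1, GATA3-AS1 (64.3 ± 1.06 CPM), TP53TG1 (57.7 ± 5.49 CPM), PCAT6 (55 ± 3.05 CPM) and DLEU1 (52.2 ± 2.73 CPM). CDKN2B-AS1, antisense in a tumour suppressor locus, had 44.7 ± 0.595 CPM and a peak in 1 list, and 21 of the 32 had no peak.

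Promoter sequences were compared where RefSeq lists them. They matched 3807 of 5333 lncRNA windows (71.4%), 68.3% of standalone, 73.8% of host and 74.7% of protein-coding windows, fewer than the 80% required for a comparison by sequence, so checks on those classes are void. They matched 81.3% of divergent and 83.8% of head-to-head windows. Of all 35116 listed promoters, 25% (24.5 to 25.5) held the G4 motif on either strand. Head-to-head lncRNA promoters held it in 122 of 319 (38.2%; 33.1 to 43.7) with a consensus peak and in 90 of 236 (38.1%; 32.2 to 44.5) with no peak in any list. These shares lie within each other's intervals. Over all divergent promoters the motif was in 133 of 348 (38.2%, interval 33.3 to 43.4) with a consensus peak. Without a peak it was in 149 of 440 (33.9%, interval 29.6 to 38.4), where 78.9% of windows had a sequence. In head-to-head promoters the motif lay on the gene's own strand in 19.4% with and 22% without a peak, and on the other strand in 21.6% and 23.3%. Other features differed more. The GC box GGGCGG, read on both strands, can share bases with the motif. It was in 82.1% of head-to-head promoters with a consensus peak and 62.7% of those without, against 45% of all listed promoters. Median GC content was 69.7% with and 67.3% without, and the ratio of observed to expected CpG was 0.908 with and 0.8 without. A match describes the letters in this stretch and is not evidence of a folded structure or of a bound factor.

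Over all divergent lncRNA promoters with a sequence, the share with a consensus peak went with GC content: 0 of 31 below 45% GC, 5.93% (7 of 118) at 45 to 55%, 33.5% (92 of 275) at 55 to 65%, 45.2% (185 of 409) at 65 to 75% and 35.4% (64 of 181) at 75% or more. Within these strata, promoters with the motif had a peak more often than those without in 2 cases and less often in 2, with overlapping intervals in each. At 65 to 75% GC the shares were 42.6% (75 of 176; 35.5 to 50) with the motif and 47.2% (110 of 233; 40.9 to 53.6) without, and at 55 to 65% they were 22.7% (10 of 44) and 35.5% (82 of 231). Median density followed, at 43.7 ± 2.56 CPM with and 46.3 ± 1.35 CPM without the motif in the stratum of 65 to 75%. GC content moved with the share, and its part in the result was not tested.

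**Figure D5:**
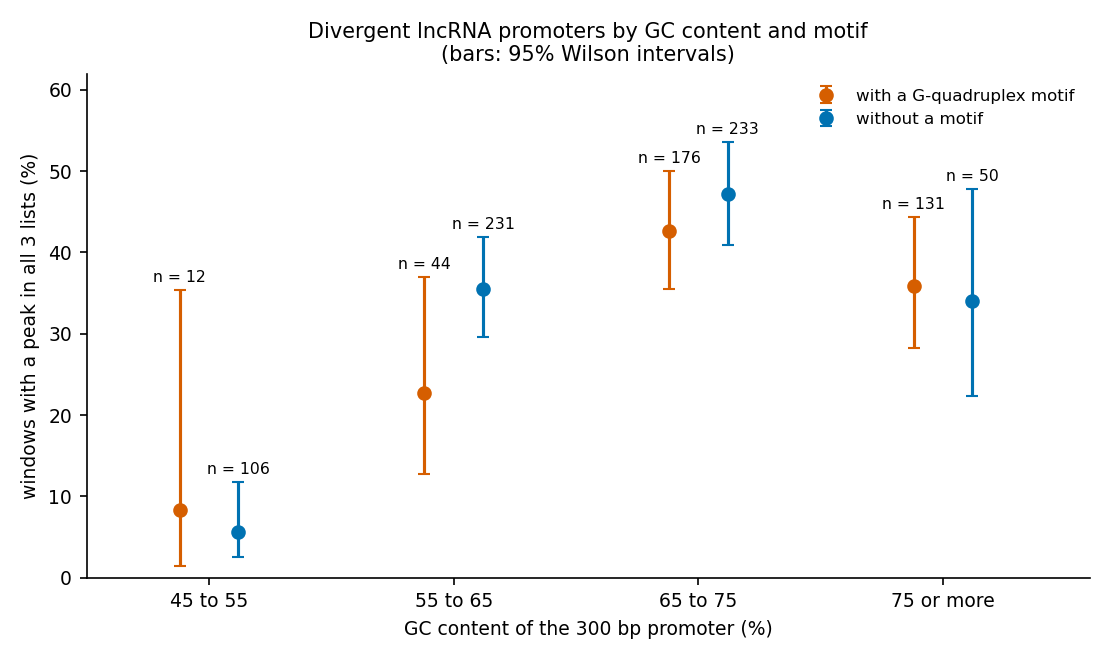
Percent of divergent lncRNA windows with a consensus peak by GC content of the 300 bp promoter, for promoters with and without the G4 motif (points with 95% Wilson intervals, n above). From 45 to 75% GC the shares grow with GC content in both sets, and the intervals of the 2 sets overlap in every stratum.

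The design holds a single condition, so the only comparison between groups of libraries is between biological replicates. The labels do not say whether these came from separate cultures, and the p-values rest on the spread between technical libraries. Of 17499 windows with enough reads, edgeR's quasi-likelihood test called 0 at an adjusted p under 0.05 (percent called 0, with 1377 at an unadjusted p under 0.05), and of the 1834 lncRNA windows among them 0, with 117 or 6.38% at an unadjusted p under 0.05. DESeq2's likelihood ratio test also called 0, with 334 windows, of which 28 lncRNA, at an unadjusted p under 0.05. Taken over all windows together, the summed counts of the biological replicates did differ beyond sampling noise, with a chi-square per window of 1.235 for BioRep3 against BioRep1, 1.123 for BioRep2 against BioRep1 and 1.051 for BioRep3 against BioRep2. The lowest p of any lncRNA window was that of EDRF1-DT, beside a gene tied to erythroid development, with 118 CPM in BioRep3, 127 CPM in BioRep2 and 79.1 CPM in BioRep1 (log2 difference 0.63 for BioRep2 over BioRep1, unadjusted p = 0.000145, adjusted p = 0.168). MPP7-DT had 103, 84.6 and 61.1 CPM in the same order (log2 difference 0.71 for BioRep3 over BioRep1, adjusted p = 0.189). A second EDRF1-DT window, ENTPD3-AS1 and LINC01201 followed with adjusted p of 0.279 to 0.282. With no filter on low counts, EDRF1-DT and MPP7-DT passed, as 2 of 25 calls over 56196 windows.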

How the data were processed

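Per the labels' protocols, HEK293 chromatin was fixed, sonicated and pulled down with BG4, and the tools were BWA, cutadapt, MACS2, Picard and bedtools on build hg38, per the submitters' processing notes. Not given in the sources used here: the peak threshold, how technical libraries were joined into 1 list, and what was done with duplicates. The authors deposited read counts per 400 bp TSS window for 9 ChIP libraries, and 3 peak lists, 1 per biological replicate, without scores. Inputs were not analysed here.

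Gene classes, small RNAs and promoter sequences came from RefSeq tables of GRCh38.p14, which list a strand for only some genes. Where a gene had none, its strand came from the window at its end: of lncRNA genes of known strand, 3920 had a window at the 5′ end and 100 at the wrong end, and 105 genes with windows at both ends were dropped. CPM used all reads in windows as the total, and a peak counted where it overlapped a window by 1 bp. Wilson intervals (95%) cover counting error only. At these depths 1 read is 1.18 to 2.69 CPM. Classes were compared by an exact sign-flip permutation test over 3 biological replicates, and replicates by edgeR 4.0.16 (quasi-likelihood, TMM, filterByExpr, Benjamini-Hochberg), with DESeq2 1.42.0 as an alternative. In simulated counts over 17499 windows, the edgeR step recovered 85.1% of 67 windows changed by a fold of 2 between biological replicates and 47.8% of 67 changed by a fold of 1.5, with 6 false calls over the whole simulation. The simulated spread was that between technical libraries (common dispersion 0.0011), so recovery against variation between cultures was not tested. Named windows were, per class, the 8 with the highest lowest library among those with a consensus peak, the 3 highest without a peak, the 5 lowest p, and the leading members of each list; genes that spell out a count of 5 or fewer were chosen after their values were seen. A few of these are not reported here. The members and lists were chosen with earlier results of these data known.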

Additional observations from a re-analysis of the deposited data

How the results depend on the processing

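In the share of windows with a consensus peak, divergent windows stayed above host and host above standalone windows under the alternatives run. No difference that was rerun changed sign. Divergent and head-to-head windows were not set directly against protein-coding windows in these alternatives. The shares for lncRNA, divergent, host and standalone windows were 13.8, 47.1, 26.2 and 3.31% with a peak in at least 2 lists, 16.6, 55.3, 29.5 and 4.44% in at least 1, and 3.46, 17.6, 10.8 and 1.45% in windows that overlap no other. Leaving out 1 list gave 9.47 to 13.4, 33.4 to 46.2, 18 to 25.4 and 1.98 to 3.09%. An overlap of 50 bp gave 8.1% for lncRNA and 28.7% for divergent windows. One of 100 bp gave 5.7, 20.4 and, for standalone, 1.05%, and peaks wider than their list's median 5.27, 19.1 and 0.878%. Divergent windows had 37.6% with the protein-coding TSS within 500 bp and 29.8% within 2 kb. Settings chosen after seeing the data gave 10.8% for lncRNA genes of known strand and 2.65% for standalone windows when only outermost protein-coding ends were used. Median CPM was 35.9 for divergent windows without mitochondrial reads in the total. It was 9.02, 21.9 and 10.6 for lncRNA, divergent and host windows that overlap no other, and 29.6, 41, 37.7 and 19.9 for lncRNA, divergent, host and standalone windows passing filterByExpr, which drops low windows. Leaving out a library or replicate gave medians of 9.64 to 10.2, 34.5 to 35.2, 12.5 to 13 and 8.27 to 8.69 CPM for lncRNA, divergent, host and standalone windows. Leaving out a replicate moved the divergent minus standalone difference between 39 and 46.8 percentage points, and lncRNA minus protein-coding between -24.6 and -20.6. With no filter on low counts edgeR called 25 windows, of which 2 lncRNA, and leaving out a technical library gave 0 to 1. Technical number does not pair libraries (correlations of same-numbered libraries -0.0146 to 0.0262), and the fit with it as a replicate block called 0 windows. Regions upstream were 78.3% within 500 bp, and 64.8 and 64.3% in the lists of BioRep2 and BioRep3. The motif was in 55.7% of divergent promoters with a consensus peak with loops up to 12 bases, 18.7% on the transcribed direction and 22.1% on the other strand. Divergent promoters without a peak had 51.4, 16.8 and 21.8%. Head-to-head promoters had 55.8, 19.4 and 21.6% with a consensus peak and 55.9, 22 and 23.3% without a peak. The cause of these moves was not tested beyond how each setting is built. GC and motif strata for the class differences were void for lack of sequence, and runs of 2 guanines were not run. Depth limits single windows: a standalone median of 8.48 CPM is a few reads per library, and 3.09 to 7.29% of lncRNA windows were empty in a library.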
